A study of Mus musculus with 6 samples.

Results

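The cytosolic ribosomal protein genes of mouse gastrocnemius muscle were taken by name from the count table: symbols of the form Rpl, Rps or Rplp with a number, together with Rpsa. Of 104 symbols that matched, 10 for S6 kinases and 7 for processed pseudogenes were dropped, and 2 (Rpl10l at 0 counts and Rpl39l at 4) were below the minimum of 60 counts over the 6 libraries. This left 85 genes of 24054 in the table. They comprised 43 proteins of the large 60S subunit, 31 of the small 40S subunit, the 3 stalk proteins Rplp0, Rplp1 and Rplp2, 7 paralogs (Rpl3l, Rpl7l1, Rpl22l1, Rpl36al, Rps4l, Rps27l and Rps27rt), and Rps19bp1, which binds Rps19 and is no ribosomal protein itself. The first 3 of these classes, 77 genes, are called the core genes below. The genes closest to the minimum from above were Rps27 with 387 counts, Rpl30 with 705 and Rps4l with 804.

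The libraries came from gastrocnemius of male C57BL/6 mice, 3 libraries from mice in which IRF4 was deleted (MI4KO, Irf4 flox/flox with Myl1-Cre) and 3 from mice in which IRF4 was overexpressed (MI4OE, Rosa26-LSL-IRF4 with Myl1-Cre). Irf4 encodes a transcription factor of the interferon regulatory factor family, and the study asked what changes in muscle when it is lost or gained. Both groups carry Myl1-Cre, which is driven by a myosin light chain gene of fast fibres, so that other cells of the muscle need not carry the change. High fat diet is the food named in all 6 labels, but the study speaks of chow-fed animals, so the diet is uncertain, and the age of these mice was not given. No unmodified gastrocnemius was analysed here, and every difference is therefore between a knockout and an overexpressor.

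The ribosome is built from ribosomal RNA and a nearly fixed set of proteins, most of them present once per particle, and each is made from its own mRNA. Ribosomal protein mRNAs are abundant and short, and most begin with a 5′ terminal oligopyrimidine (TOP) motif, a C followed by a run of pyrimidines, through which mTOR complex 1 and Larp1 set their translation. Striated muscle adds Rpl3l, a close relative of Rpl3 that takes its place near the peptidyl transferase centre. Most ribosomal protein genes also have processed copies elsewhere in the genome, which makes short reads hard to place.

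Promoter sequences from RefSeq (GRCm38.p6) were matched for 64 of the 85 genes. A run of at least 6 pyrimidines that begins with C and comes within 10 bases of the annotated start, on the sense strand, was found in 34 of the 64 (53.1%), against 21.9% of 27025 genes with an entry. The windows below show starts with and without such a run. Each is 30 bases around the start, with the run in capitals where there is one. Rps6 is the target of the S6 kinases, Rpl27a and Rpl35 had the longest runs and Rpl15 one of the next longest, Rpl11, Rpl36al and Rpsa had none, Rps27 and Rps27rt are a gene and its expressed copy, and Rpl22l1 and Rpl3l are the paralogs described further on.
Rps6, chr4:86857348-86857377, minus strand: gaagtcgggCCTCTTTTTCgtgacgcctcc
Rpl27a, chr7:109519185-109519214, plus strand: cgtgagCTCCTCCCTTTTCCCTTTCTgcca
Rpl35, chr2:39005112-39005141, minus strand: ccgCCCTTTCCTCTTTCTCTCgaaccaggc
Rpl15, chr14:18270967-18270996, minus strand: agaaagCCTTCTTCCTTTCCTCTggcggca
Rps27, chr3:90213629-90213658, minus strand: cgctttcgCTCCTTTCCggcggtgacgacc
Rps27rt, chr9:114982720-114982749, minus strand: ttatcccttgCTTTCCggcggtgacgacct
Rpl22l1, chr3:28805498-28805527, plus strand: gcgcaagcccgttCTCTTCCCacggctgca
Rpl11, chr4:136053374-136053403, minus strand: ccataaggccacggggccggaagtctccct
Rpl36al, chr12:69184048-69184077, minus strand: ccgtcgctcaggttcagttccgacttccgc
Rpsa, chr9:120127756-120127785, plus strand: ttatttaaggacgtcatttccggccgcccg
Rpl3l, chr17:24727816-24727845, plus strand: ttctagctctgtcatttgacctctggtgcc

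The Rpl3l window, like those of Rpl11, Rpl36al and Rpsa, held no such run within 10 bases of the start. The pyrimidines that end the Rpl11 window lie farther from the start. The Rps27 and Rps27rt windows shared a stretch of 19 bases that begins with pyrimidines of the run. Other motifs were searched on both strands over 250 bases before and 50 after the start. CCGGAAGT, an ETS-type motif, was in 12 of 64 (18.8%, against 4.31% of all genes), AAGATGGC, a YY1-type motif, in 6 (9.38%, against 3.19%), and TATAAA in 7 (10.9%, against 15.7%). The interferon-stimulated response element in the form GAAA, any 2 bases and GAAA again, which interferon regulatory factors bind, was in 7 (10.9%, against 3.99%), namely Rpl27a, Rpl38, Rpl4, Rpl5, Rps19, Rps23 and Rps7. The composite form bound with an ETS partner, GGAA, any 2 bases and GAAA, was in Rpl37 alone (1.56%, against 3.16%). These matches describe the letters only.

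Libraries held 18828605 to 29239585 estimated counts. Irf4 was at 6, 0 and 2 counts in the MI4KO libraries and at 2864, 10557 and 5911 in the MI4OE libraries. The log2 fold change was 11.24 (SE 0.78, adjusted p = 0.0055 by edgeR), and the adjusted p was 0.0587 without MI4KO replicate 1. The tissue markers were those of muscle fibre, with Acta1 at 39559 to 55108 CPM (counts scaled to a common library size) and Ckm at 22473 to 44001 CPM. Of the 8 fibre markers, 3 had a positive log2 fold change, Mb, Myh1 and Myh2, and these varied more. Mb ran from 305 to 9763 CPM and Myh1 from 566 to 10167 CPM, both highest in MI4OE replicate 1. Myh2 was at 3.44, 90.1 and 1022 CPM in MI4KO and 7421, 13.2 and 1808 CPM in MI4OE. MI4OE replicate 1 stood apart: 5 slow-fibre markers summed to 4511 CPM, against 0.839 and 389 in the other MI4OE libraries and 1.56 to 53.1 in MI4KO, and its 10 most abundant genes took 25.5% of counts, against 32.8% to 36.8% elsewhere. Values without it are given beside some of the results. For the named genes of the family, ranges on leaving out single libraries are given at the end. In bulk muscle, fewer cells of a type and less RNA per cell cannot be told apart.

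No ribosomal protein mRNA was called different between the genotypes. None of the 85 genes passed an adjusted p of 0.05 (edgeR quasi-likelihood test, Benjamini-Hochberg over 12660 genes), where 0.0237% of all genes did. At an unadjusted p of 0.05 the count was again 0 of 85, against 7.58% of all genes, and at the study's criterion of 1.5-fold with that p it was 0 of 85, against 6.64% (4.36% higher and 2.28% lower in MI4OE). The study's own fit gave the other balance at this criterion, with more genes lower than higher in MI4OE. In no gene did the 3 MI4KO CPM values lie wholly apart from the 3 MI4OE values, which 12.9% of all genes did. The 77 mitochondrial ribosomal protein genes also gave 0 at each of these limits, so the absence is not particular to this family. DESeq2 gave 0 genes at both limits, and the exact test of edgeR gave 0 adjusted and 1 unadjusted, Rps27.

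The estimates were close to 0. The median log2 fold change of MI4OE over MI4KO was 0.01 over the 85 genes, with 47 above 0, beside 6327 of 12660 for all genes. It was 0.03 for the 60S genes, 0.01 for the 40S genes and 0.02 for the stalk, while the 7 paralogs had a median of −0.12 and were all below 0 (Rpl36al and Rpl7l1 were above 0 on total counts and on TPM). The log2 fold change was under 0.25 in size for 81 of 85 genes (95.3%, against 58.1%), and the 95% interval lay within 1 log2 unit of 0 for 79 (92.9%, against 62.4%). For those 79 genes a difference of more than 1 log2 unit lay outside the interval. Of the 77 mitochondrial ribosomal protein genes, 83.1% were under 0.25 in size and 84.4% had an interval within 1 log2 unit of 0.

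**Figure D1:**
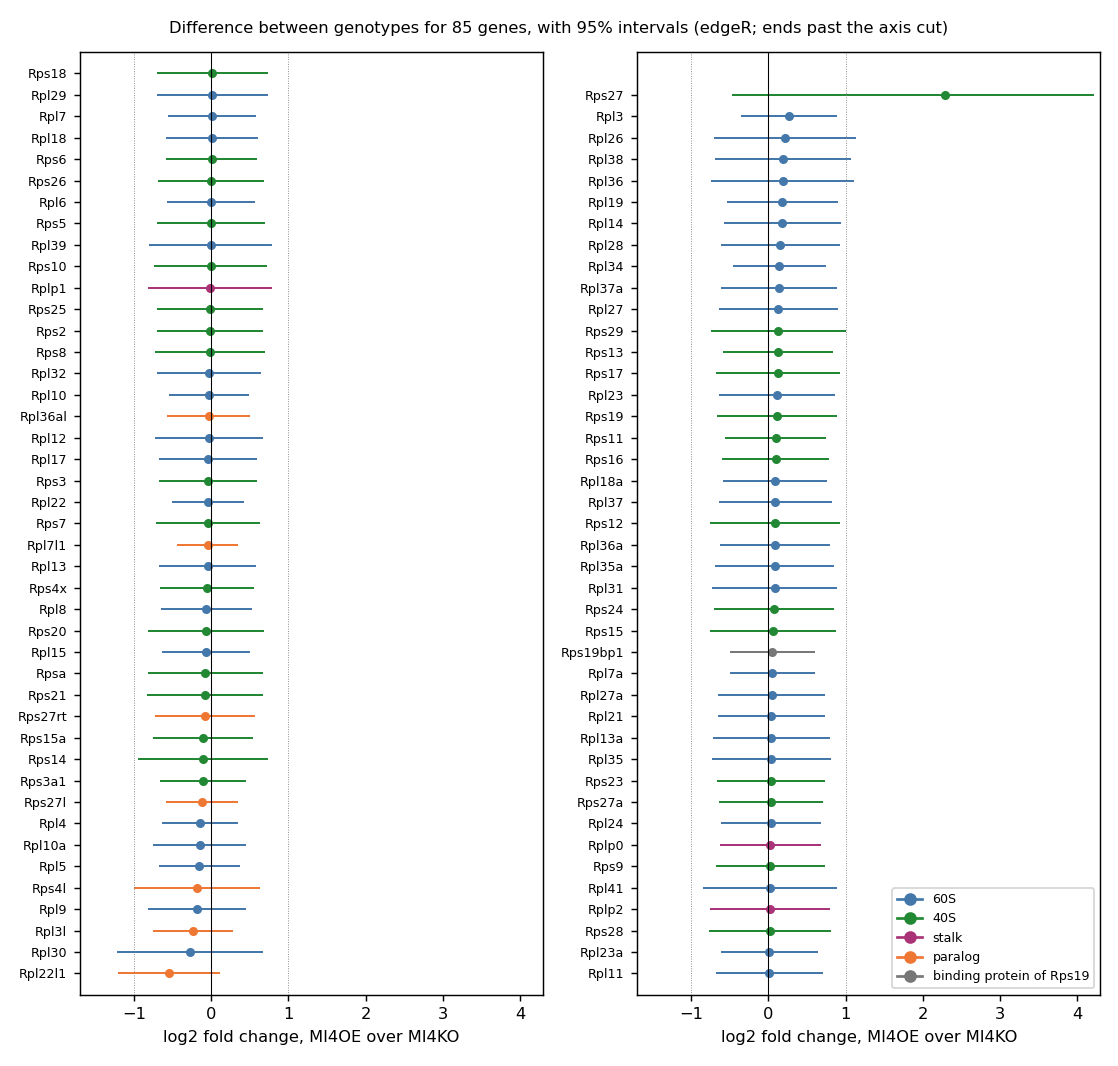
Log2 fold change of MI4OE over MI4KO (horizontal axis) for the 85 genes in order, with bars for the 95% interval of the edgeR fit and colours for the class. Every interval spans 0, and 81 of the 85 points lie under 0.25 in size. Rps27 at 2.28 is the point far to the right, and its interval is cut at the axis.

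The direction of these small estimates changed with single libraries. Without MI4OE replicate 1 the median became −0.26 with 1 of 85 genes above 0 (Rpl26), and without MI4KO replicate 2 it was −0.18 with 3 above 0 (Rpl26, Rpl3 and Rps27). Without MI4KO replicate 1 the median was 0.20 with 78 above 0, and without MI4OE replicate 2 it was 0.17 with 75 above 0. On total counts without TMM scaling it was 0.13 with 76 above 0, beside a median of 0.09 over all genes. On TPM, with 1 added before the logarithm, it was 0.07 with 69 above 0, beside 0.04 over all genes.

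What the family did show was a common movement from library to library. Expressed as log2 CPM minus each gene's own mean, the median core gene stood at 0.33, −0.46 and 0.09 in MI4KO replicates 1 to 3 and at 0.49, −0.34 and −0.10 in MI4OE replicates 1 to 3. The high and the low libraries were thus spread over both genotypes, with a ratio of 1.94 between the extremes, and the mean of these medians was −0.01 in MI4KO and 0.02 in MI4OE. MI4OE replicate 1 was the highest library for 62 of 77 core genes, and MI4KO replicate 2 was the lowest for 71. The 60S, 40S and stalk medians moved alike, for example 0.48, 0.50 and 0.56 in MI4OE replicate 1 and −0.46, −0.46 and −0.51 in MI4KO replicate 2.

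The size of the pattern depended on the scale. As a share of all counts, ribosomal protein genes took 2.16%, 1.504% and 2.13% in MI4KO and 2.88%, 1.57% and 1.85% in MI4OE. As a share of the TPM total, which is per length, they took 5.52%, 4.32% and 5.48%, and 6.78%, 4.46% and 5.05%. The median core TPM was 644, 521 and 666 in MI4KO and 781, 525 and 596 in MI4OE, a ratio of 1.498 between the extremes. MI4KO replicate 1 stood above MI4KO replicate 3 in CPM after TMM scaling, with a factor of 0.864 for the former and 1.02 for the latter, but not in median TPM.

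**Figure D2:**
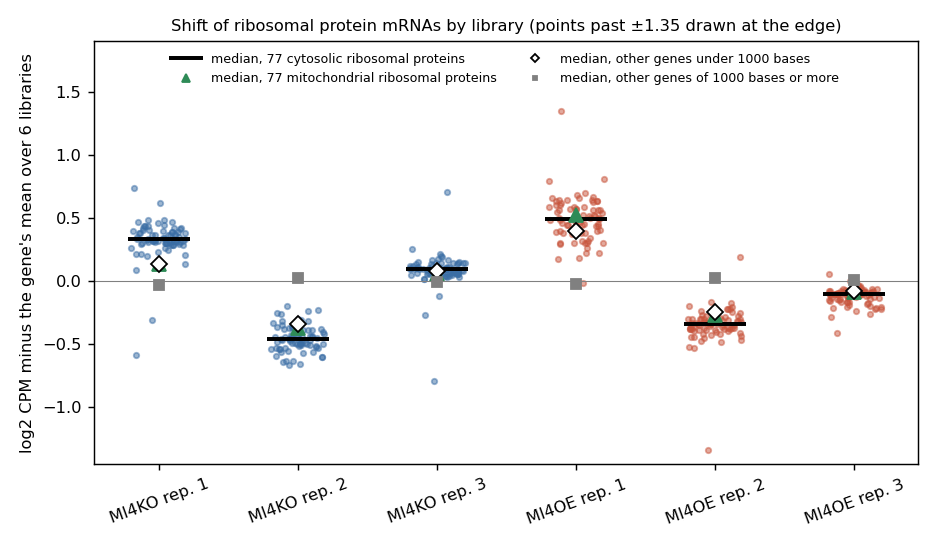
Each point is 1 of the 77 core genes in 1 library, as log2(CPM + 0.5) minus that gene's mean over the 6 libraries (vertical axis), in blue for MI4KO and red for MI4OE. Black bars are the core medians (0.33, −0.46, 0.09, 0.49, −0.34 and −0.10), green triangles the medians of mitochondrial ribosomal protein genes, diamonds those of other genes with an effective length under 1000 bases and grey squares those of longer genes. The genes move as a block, and the squares stay near 0.

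The first principal component held 87.2% of the variation of the 77 core genes over the 6 libraries, against 91.6% for the 77 mitochondrial ribosomal protein genes and 50.9% for all genes tested, and 89.4% after the genotype means had been removed. The median correlation between a pair of core genes was 0.98, and 83.0% of pairs were above 0.9. These are descriptions over 6 libraries that share depth and scaling. The genes whose profile followed the mean of the rest least were Rps4l (r of 0.41), Rpl26 (0.44), Rpl22l1 (0.53), Rpl3 (0.62), Rps27 (0.67), Rpl4 (0.70), Rpl30 (0.75) and Rpl3l (0.80). Rpl26 and Rpl30 are named for this value after it was seen. Rps27, Rpl30 and Rps4l had the lowest counts of the family (387, 705 and 804). Of the 50-base stretches in Rpl26 and Rps27 transcripts, 60.6% and 54.2% were also in another gene. The part of low counts and copies in these values was not tested. Both members of the Rpl3 pair were thus among the 8 least coordinated genes.

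Some other gene sets moved along the same libraries, and their part in the pattern was not tested. The 77 mitochondrial ribosomal protein genes, which serve a separate ribosome, had medians of 0.13, −0.37 and 0.05 in MI4KO and 0.53, −0.27 and −0.08 in MI4OE. Short genes outside the family, 1015 with an effective length under 1000 bases, had medians of 0.14, −0.34, 0.08, 0.40, −0.24 and −0.08 in the same order, while 11560 longer genes stayed between −0.03 and 0.02. Within the core, the shift of MI4OE replicate 1 and effective length had a Spearman rho of −0.51 across genes. The sum of 5 fibroblast markers was 169 to 265 CPM in MI4KO and 303 to 411 in MI4OE, with all 5 at a positive log2 fold change. It was lowest in MI4KO replicate 2, and within MI4OE lowest in replicate 2, as for the family. The fibroblast sum was level in MI4OE replicates 1 (411 CPM) and 3 (410 CPM), where the family stood at 0.49 and −0.10. Within MI4KO it was highest in replicate 3. The sum of 5 endothelial markers, again all 5 positive, was 69.9 to 116 and 135 to 264, and the erythroid sum was 184 to 291 and 242 to 734, with 3 of 3 tested positive. The erythroid sum was highest in MI4OE replicate 1 (734 CPM) and lowest in MI4KO replicate 2 (184 CPM) and MI4OE replicate 2 (242 CPM), the same high and low libraries as for the family. The endothelial sum was also highest in MI4OE replicate 1, and its lowest value was in MI4KO replicate 1, where the family was high. Leukocyte markers summed to 8.98 to 20.5 CPM over all libraries, with 2 of 6 tested positive. The 6 adipocyte markers, none positive, summed to 181 to 935 CPM in MI4KO and 113 to 266 in MI4OE, and the 4 Schwann markers, all positive, to 13.9 to 89.7 and 55.5 to 175. Fabp4 (log2 fold change −0.66) made up most of the adipocyte sum in MI4OE, at 260, 104 and 104 CPM. The other 5 adipocyte markers had log2 fold changes of −3.53 to −4.07, with unadjusted p under 0.05 and adjusted p of 0.454 or more by edgeR. At that unadjusted limit 7.58% of all genes passed. The Schwann sum was highest within each group in MI4KO replicate 2 and MI4OE replicate 2, where the family was low, and the adipocyte sum was highest in MI4KO replicate 3. The 8 muscle-fibre markers, 3 of them positive, summed to 203764 to 270205 CPM in MI4KO and 163427 to 213015 in MI4OE. Their sum was highest in MI4KO replicate 1 and lowest in MI4OE replicate 1, and the family was high in both.

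Levels between genes were compared in TPM, which is per length. The median core gene had a mean of 632 TPM, in a spread that ran from 16.2 for Rps27 to 1478 for Rps2, and 70 of 77 were above 200 TPM. The highest were Rps2, which lies at the mRNA entry, the stalk proteins Rplp1 (1449 TPM) and Rplp2 (1397 TPM), Rps29 (1351 TPM) and Rpl36 (1317 TPM). Their ranges over libraries overlapped, for example 1235 to 1815 TPM for Rps2 and 930 to 2071 TPM for Rpl36, and these 5 could not be ordered. At the other end, 7 core genes had means under 100 TPM: Rps27, Rps15a (16.9), Rpl30 (16.9), Rpl3 (53.6), Rpl26 (61.6), Rpl34 (81.0) and Rpl22 (87.5). Rps15a had an effective length of 5077 bases, against a median of 646 for the 85 genes, which lowers its level per length. It had 8165 counts over the 6 libraries, and the pseudogene symbols Rps15a-ps4 and Rps15a-ps6 had 8299 and 3344. Others of these 7 also had copies that held counts. Rps27 and Rps27rt together had a mean of 1273 TPM. Gm15772 held 4084 to 7793 counts a library, against 266 to 654 for Rpl26. Rpl34-ps1 held 14652 counts over the 6 libraries, against 3271 for Rpl34.

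**Figure D3:**
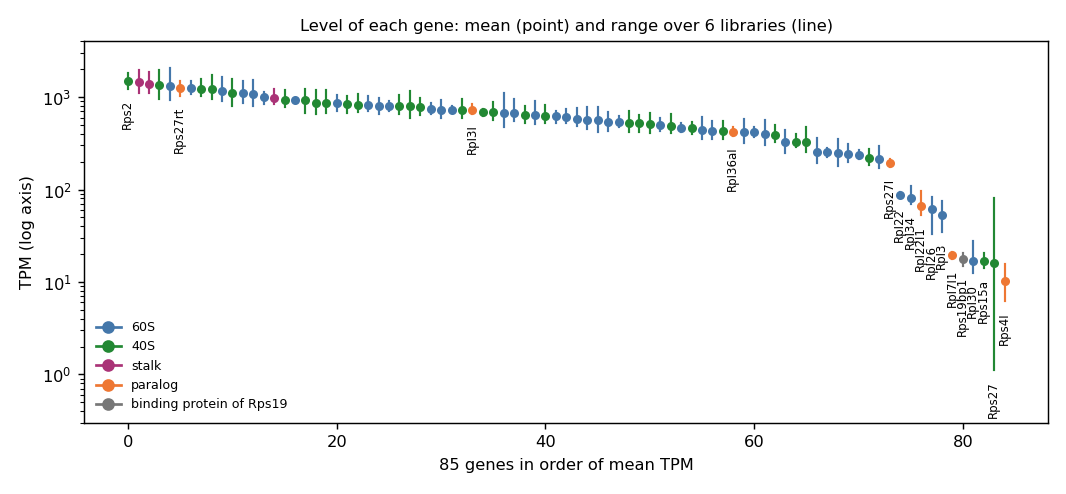
Mean TPM over the 6 libraries (points, log axis) and the range from the lowest to the highest library (lines) for the 85 genes in order of their mean. Most core genes lie between 200 and 1478 TPM. Rps27 has the widest range, from 1.11 to 81.6 TPM, and its copy Rps27rt lies among the highest.

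Rpl3l was the predominant Rpl3-type mRNA in this muscle. Rpl3l was at 755, 696 and 832 TPM in MI4KO and at 709, 662 and 678 TPM in MI4OE, with the 2 lowest values in MI4OE but overlap between the groups. Rpl3 was at 34.8, 50.2 and 59.4 TPM in MI4KO and 75.5, 50.4 and 51.3 TPM in MI4OE, again with overlap. Together they made 776 TPM on average, of which 93.1% was Rpl3l, and 49 of the 77 core genes had a mean below that sum. Neither gene differed by edgeR: the log2 fold change was −0.23 for Rpl3l (SE 0.22, 95% interval −0.74 to 0.27, adjusted p = 0.853) and 0.27 for Rpl3 (SE 0.26, interval −0.34 to 0.88, adjusted p = 0.857). Without MI4OE replicate 1 the Rpl3 estimate was −0.04. Leaving out MI4KO replicate 1 brought the Rpl3l estimate to −0.12, and leaving out MI4KO replicate 2 brought it to −0.40.

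The ratio of Rpl3l to Rpl3 was 21.7, 13.9 and 14.0 in MI4KO and 9.39, 13.1 and 13.2 in MI4OE. All MI4OE ratios lay below all MI4KO ratios, with a mean of 16.5 ± 4.47 against 11.9 ± 2.19 (SD, n = 3 each). The exact two-sided permutation test on the log2 ratio gave p = 0.1, the smallest that 3 against 3 allows, and 0.35 after Benjamini-Hochberg adjustment over the 7 paralog ratios computed. The log2 difference was −0.46 and went to −0.24 without MI4KO replicate 1 and −0.29 without MI4OE replicate 1. That library had the highest ratio and MI4OE replicate 1 the lowest, and the other 4 ratios lay between 13.1 and 14.0.

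**Figure D4:**
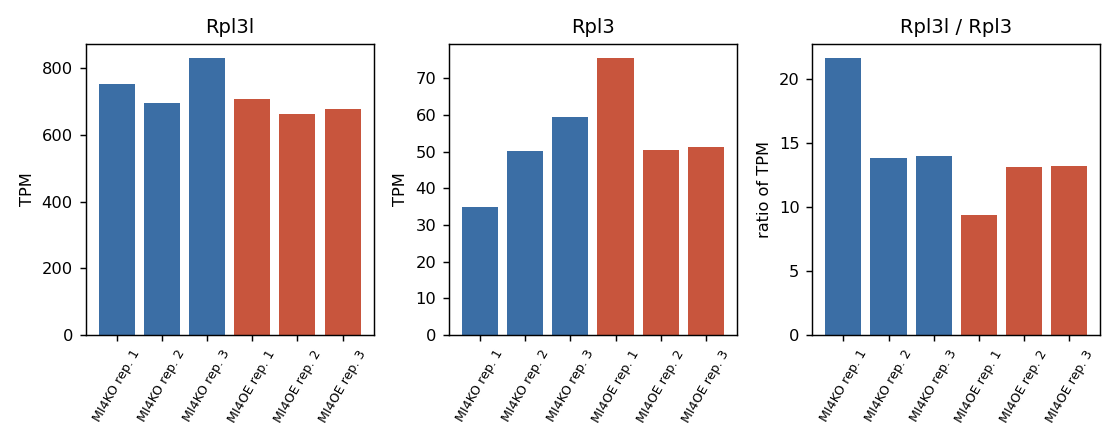
Rpl3l (left) and Rpl3 (middle) in TPM, and the ratio of their TPM (right), in each of the 3 MI4KO (blue) and 3 MI4OE (red) libraries. Rpl3l stays between 662 and 832 TPM, and the ratio is highest in MI4KO replicate 1 (21.7) and lowest in MI4OE replicate 1 (9.39).

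Of the other paralog pairs, Rpl22l1 and Rpl22 alone also gave a ratio without overlap. Rpl22 is an RNA-binding protein of the large subunit, and Rpl22l1 can stand in for it. Rpl22l1 was at 97.1, 62.6 and 70.1 TPM in MI4KO and 53.0, 56.2 and 61.1 TPM in MI4OE, and these values do not overlap, although those in CPM do. No share of all genes without overlap was computed for TPM or for ratios of genes. The log2 fold change of Rpl22l1, −0.54 (SE 0.28, interval −1.19 to 0.10, adjusted p = 0.722 by edgeR), was the lowest of the 85. It went to −0.18 without MI4KO replicate 1 and −0.78 without MI4KO replicate 2. Rpl22 was level at 83.1, 84.5 and 92.8 TPM and 94.6, 82.6 and 87.2 TPM. Their ratio was 1.17, 0.741 and 0.755 in MI4KO and 0.561, 0.681 and 0.700 in MI4OE, without overlap (exact permutation p = 0.1, adjusted 0.35). The log2 difference of −0.43 went to −0.22 without MI4KO replicate 1, which had the highest ratio.

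The other 5 paralog ratios overlapped between genotypes, with exact permutation p of 0.6 to 0.8. Rpl36al, at 423 TPM on average, exceeded Rpl36a, at 328 TPM, in every library, with ratios of 1.09 to 1.54. Rpl7l1, which acts in 60S assembly, was at 17.8 to 20.9 TPM, which is 0.0327 to 0.0422 of Rpl7. Rps4l was at 6.18 to 15.7 TPM, or 0.0129 to 0.0319 of Rps4x. Rps27l, a p53-responsive relative of Rps27, was at 174 to 214 TPM. The fold changes of Rpl36al, Rpl7l1, Rps27l and Rps4l were −0.03, −0.05, −0.12 and −0.19 on the log2 scale, and none passed the test.

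Rps27 carried the only large estimate of the family. Its CPM was 0.819, 1.03 and 1.14 in MI4KO and 13.4, 0.280 and 1.15 in MI4OE, so that 1 library lay above all others and another below. The log2 fold change was 2.28 (SE 1.17, interval −0.45 to 5.02, unadjusted p = 0.0897, adjusted p = 0.722 by edgeR), and −0.51 without MI4OE replicate 1. In that library 86.7% of Rps27 counts were in 1 transcript, NM_027015, which had 0 counts in the other libraries, and the other transcript, NR_033727, had a log2 fold change of 0.09 (SE 0.69). Rps27rt, an intronless copy of Rps27 on another chromosome, stood at 219, 134 and 202 CPM and 229, 134 and 162 CPM. Of the 50-base stretches in Rps27 transcripts 54.2% were also in another gene, and of those in Rps27rt 89.8%. RSEM divides reads that match both. With the counts of both genes summed, the values were 220.2, 135 and 203 CPM in MI4KO and 242, 134 and 163 CPM in MI4OE, and the log2 fold change was −0.05 (SE 0.28, interval −0.71 to 0.61, adjusted p = 0.983).

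Copies bore on a few other genes. No 50-base stretch was shared with another gene of the table for 70 of the 85 genes, and 7 shared at least 10%. The share is of all stretches of a gene, so a long transcript can lower it. Rps15a, with pseudogene symbols that held counts, shared 2.885% of 5130 stretches and was not summed. For Rpl26 the share was 60.6%, with Gm15772, which took 4084 to 7793 counts a library. Rpl26 alone was at 26.8, 11.0 and 8.93 CPM in MI4KO and 19.6, 18.1 and 16.4 CPM in MI4OE. Summed with that copy it was at 297, 173 and 271 CPM and 381, 194 and 227 CPM, and its log2 fold change went from 0.22 to 0.11. For Rpl14, with 49.3% shared with Rpl14-ps1, it went from 0.18 to −0.01. Rps2, Rps19 and Rplp2 shared 12.8% to 30.7% and hardly changed on summing, at −0.02, 0.11 and 0.02. The pseudogene symbols that the name rule left out held up to 14652 counts over 6 libraries, for Rpl34-ps1, which is more than the 3271 of Rpl34 itself. Reads with mismatches can also be divided, so that no shared stretch does not make a gene's counts its own.

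Genes with a known role in ribosome assembly or signalling stayed near 0. Rplp0, Rplp1 and Rplp2, the stalk that recruits elongation factors, had log2 fold changes of 0.03, −0.01 and 0.02 (SE 0.27 to 0.34). Rps6 was at 304, 206 and 290 CPM in MI4KO and 343, 215 and 246 CPM in MI4OE, with a log2 fold change of 0.01 (SE 0.25). Rpl5 and Rpl11, which travel with the 5S RNA and bind Mdm2, had −0.16 and 0.01, and Rps19, mutated in Diamond-Blackfan anaemia, had 0.11. Rpsa, known also as a laminin receptor, had −0.07, and Rps27a, made as a fusion with ubiquitin, had 0.03. Rps19bp1, at 15.03 to 20.5 TPM, had 0.05. After Rps27 and Rpl3, the genes of lowest p with a positive estimate were Rpl19 (0.18), Rpl34 (0.14) and Rpl14 (0.18), and after Rpl22l1 and Rpl3l those with a negative one were Rpl4 (−0.15), Rpl5 and Rpl9 (−0.19), all with adjusted p of 0.901 or more by edgeR. Without MI4OE replicate 1, Rpl5 was at −0.30, Rpl9 at −0.42, Rpl4 at −0.18 and Rpl11 at −0.27. Rpl19, Rpl34 and Rpl14 changed sign without that library, to −0.16, −0.12 and −0.14. The 7 genes with the response element letters, chosen after their values were seen, ran from −0.16 for Rpl5 to 0.19 for Rpl38.

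Transcripts were compared in the 11 genes of the family that had more than 1 in the table, 30 transcripts in all, of which 26 could be tested. One, NM_207634 of Rps24, passed an unadjusted p of 0.05, a share near the 4.34% of all transcripts that did, and none an adjusted p of 0.05, which 0.00626% of all did. Rps24, a 40S protein, is known for alternative use of small exons near its end that change the last residues of the protein. Both exons lie on the plus strand of chromosome 14 (GRCm38, GENCODE M21), and capitals mark a stop codon.
Exon of 18 bases, chr14:24494052-24494069, in NM_207635 only: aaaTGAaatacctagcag
Exon of 20 bases, chr14:24495430-24495449, in NM_207635 and NM_011297: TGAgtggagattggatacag

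NM_207634 skips both exons. The reading frame of NM_011297 ends at the stop codon that opens the 20-base exon, and that of NM_207635 ends in the 18-base exon. NM_207635 was the most abundant form, at 80.0%, 70.1% and 71.4% of Rps24 counts in MI4KO and 85.4%, 83.8% and 75.9% in MI4OE. The groups overlapped, and the difference of 7.88 percentage points had an exact permutation p of 0.2. NM_207634 made up 11.5%, 17.9% and 12.7% in MI4KO and 4.44%, 6.48% and 9.46% in MI4OE, without overlap (exact permutation p = 0.1, the smallest possible). This transcript was chosen after its values were seen. Shares did not overlap for 2 of the 26 tested transcripts, near the 7.03% of all such transcripts. The other was NM_053257 of Rpl31, at 88.4%, 88.7% and 88.7% in MI4KO and 89.98%, 89.6% and 89.5% in MI4OE.

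On the level of the transcript, NM_207634 had a log2 fold change of −1.002 (SE 0.23, interval −1.58 to −0.43, unadjusted p = 0.00551, adjusted p = 0.746 by edgeR over 15983 transcripts). The edgeR test of transcript use within genes gave Rps24 an unadjusted p of 0.0377 and an adjusted p of 1, where 3.61% of 2385 genes passed the unadjusted limit and 0.713% the adjusted one. NM_011297 was at 8.52%, 12.0% and 15.9% in MI4KO and 10.1%, 9.70% and 14.6% in MI4OE, with overlap. The gene as a whole was at 514, 287 and 410 CPM in MI4KO and 606, 294 and 369 CPM in MI4OE, with a log2 fold change of 0.07 (SE 0.33). The forms differ by small exons only, so these shares rest on the few reads that cross them, as RSEM divided them.

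**Figure D5:**
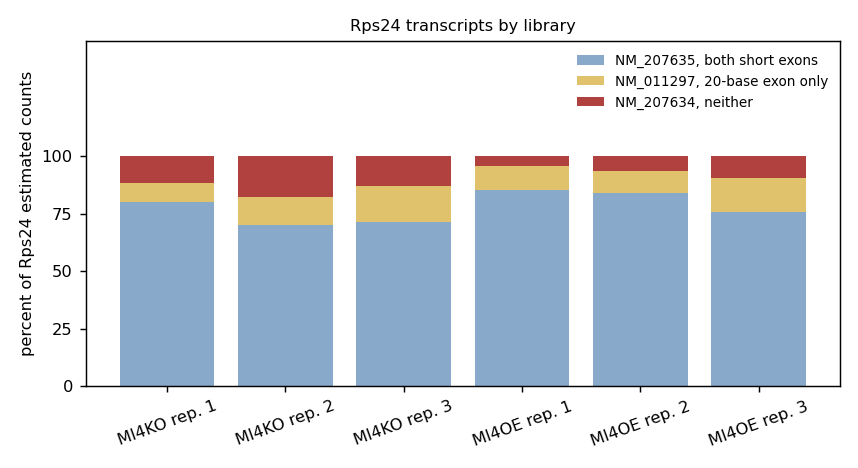
Share of Rps24 estimated counts (percent, vertical axis) in each of its 3 transcripts, stacked for each library. NM_207634 is 11.5% to 17.9% in MI4KO and 4.44% to 9.46% in MI4OE, while NM_207635 overlaps between the genotypes.

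The wider translation machinery was read from lists. Among 14 mRNAs of elongation factors and other TOP genes the median log2 fold change was −0.11, with 2 above 0. None passed an adjusted p of 0.05, and 1 of 14 an unadjusted one, near the 7.58% of all genes. It was Pabpc1, the poly(A) binding protein (−0.41, SE 0.17, unadjusted p = 0.0419, adjusted p = 0.626 by edgeR). Pabpc1 was at 199, 174 and 183 CPM in MI4KO and 122, 149 and 147 CPM in MI4OE, without overlap, as were 5.48% of all genes in this direction. Eif3e, a subunit of initiation factor 3, was at 126, 115 and 109 CPM and 89.1, 87.4 and 106 CPM, also without overlap (−0.31, adjusted p = 0.726 by edgeR). Across libraries this list moved less than the core genes, with medians of 0.28, −0.19 and 0.06 in MI4KO and 0.02, −0.18 and −0.02 in MI4OE.

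Of 35 tested genes of ribosome biogenesis, 10 were above 0, with a median of −0.06, and 0 passed either limit. Tsr1, which works on the 40S precursor, had −0.40 (adjusted p = 0.776 by edgeR) and Bysl, of the same pathway, −0.26 (adjusted p = 0.767 by edgeR). Their library medians ran only from −0.06 to 0.13. Among 12 genes of mTOR signalling to TOP mRNAs the median was −0.16 with 2 above 0, and 0 passed either limit. Rps6kb1, the S6 kinase, was at 37.9, 39.6 and 32.9 CPM in MI4KO and 27.8, 31.6 and 30.6 CPM in MI4OE, and Eif4e, the cap binding protein, at 72.0, 60.6 and 59.9 CPM and 51.9, 52.5 and 52.6 CPM. These were the 2 of 12 genes whose values did not overlap between genotypes, beside 12.9% of all genes (5.48% lower in MI4OE), and their log2 fold changes were −0.30 and −0.29 (adjusted p = 0.709 and 0.715 by edgeR). Of other ribosome components, Fau had a log2 fold change of 0.05 and Gnb2l1 one of −0.16.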

How the data were processed

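Gastrocnemius RNA was sequenced by the authors as 3 MI4KO and 3 MI4OE stranded mRNA libraries (single reads of 50 bases), mapped with Bowtie2 2.1.0 to a UCSC transcript set and quantified with RSEM 1.2.15, after bcl2fastq 2.17. The genome build of the files was not given in the sources used here. The authors deposited expected counts for genes and transcripts as RSEM estimated them, without normalization, in which a read that matches several transcripts is divided among them. The deposited TPM values are the authors' RSEM abundances per length. Tables holding the authors' own comparison (signed fold change, p-value, false discovery rate and scaled counts) were not used. Counts agreed between the combined table and the files per library (0 genes differed).

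Expected counts were rounded and fitted with edgeR 4.0.16 (R 4.3.3): filterByExpr with a minimum count of 10 and a minimum total of 15 (12660 of 24054 genes), TMM factors, and the quasi-likelihood test, adjusted by Benjamini-Hochberg across the tested genes, at 0.05. CPM used TMM-scaled sizes, with 0.5 added before logarithms, and 3 counts corresponded to 0.101 to 0.148 CPM. Intervals are 95% intervals of the fit. Groups came from the genotype labels. Replicate numbers follow deposition order, and nothing in the labels states that libraries came from separate mice, so p-values measure the spread between these samples. Ratios and transcript shares were tested by exact two-sided permutation.

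Alternatives were RLE factors, a filter on mean CPM (at least 1), no filter, total counts, TMM computed without the family, the exact test of edgeR, DESeq2 1.42.0, limma 3.58.1 on log2 TPM with 1 or 0.1 added, and leaving out each library. Summing near-identical copies (at least 10% of 50-base stretches shared, GENCODE M21), the transcript fits, the promoter motifs and the length limit of 1000 bases were added after the data were seen. The members and lists were chosen with earlier results of these data known. Named genes were the paralog pairs, a fixed set (Rplp0, Rplp1, Rplp2, Rps6, Rpsa, Rpl5, Rpl11, Rps19, Rps27a, Rps24 and Rps19bp1), the 5 of lowest p in each direction, the 5 of highest and 3 of lowest TPM, and the 2 of lowest p in each other list. The scripts were tested on simulated data. A gene in the list of other ribosome components is not reported here.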

Additional observations from a re-analysis of the deposited data

Results flagged for a closer look

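A total of 4 transcripts of the family, whose counts are part of their genes' totals, had estimated counts in 1 library and 0 in the other 5. They were NM_027015 of Rps27, with 236 counts in MI4OE replicate 1, NM_001048058 of Rpl38, with 357 counts in MI4OE replicate 1, NM_001277113 of Rpl22, with 35.4 counts in MI4OE replicate 3, and NM_001277114 of Rpl22, with 36.0 counts in MI4KO replicate 3. A count present in a single library has no replicate. For Rps27 the other transcript, NR_033727, had 8.40 to 36.1 counts over the 6 libraries.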

How the results depend on the processing

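No paired analysis was possible because no label ties an MI4KO library to an MI4OE library. The count of 0 genes at an adjusted p of 0.05 held under all 16 alternatives. The count at 1.5-fold with an unadjusted p of 0.05 became 1 with the exact test of edgeR (Rps27), and was 0 to 1 when single libraries were left out (Rpl26 without MI4KO replicate 1, Rpl22l1 without MI4KO replicate 2, Rps27 without MI4OE replicate 2). The log2 fold change of Irf4 was 10.69 to 12.61 on leaving out single libraries, with the adjusted p at 0.0587 at the upper value. The other Rps24 share, that of NM_207634, differed by −7.23 percentage points, against 7.88 for NM_207635. Depth of 18828605 counts or more put all 85 genes past the filter. None of the 34 named genes of the family passed the threshold under any alternative, but of their 544 log2 fold changes 98 changed sign, in 29 genes, and the cause was not tested beyond the settings themselves. On total counts without TMM the reversed values were Rpl10 0.084, Rpl22 0.064, Rpl36al 0.084, Rpl39 0.12, Rpl7l1 0.054, Rplp1 0.12, Rps15a 0.015, Rps2 0.10, Rps4x 0.058 and Rpsa 0.053. With limma on log2(TPM + 1) they were Rpl10 0.038, Rpl22 0.022, Rpl36al 0.039, Rpl39 0.040, Rpl7l1 0.015, Rplp1 0.048, Rps2 0.053 and Rps4x 0.011, and with 0.1 in place of 1 they were Rpl10 0.038, Rpl22 0.022, Rpl36al 0.039, Rpl39 0.040, Rpl7l1 0.015, Rplp1 0.048, Rps2 0.053 and Rps4x 0.011. Without a filter they were Rpl11 −0.012, Rpl7 −0.014, Rplp2 −0.0098 and Rps6 −0.019, with RLE factors Rpl7 −0.00052 and Rps6 −0.0053, with DESeq2 Rpl7 −0.00056 and Rps6 −0.0054, with TMM computed without the family Rps6 −0.0026, and with copies summed Rpl14 −0.013 and Rps27 −0.052. Leaving out single libraries gave ranges of Rpl3 −0.040 to 0.43, Rpl10 −0.18 to 0.10, Rpl11 −0.27 to 0.19, Rpl14 −0.14 to 0.38, Rpl19 −0.16 to 0.38, Rpl22 −0.18 to 0.046, Rpl34 −0.12 to 0.31, Rpl36 −0.28 to 0.44, Rpl36a −0.21 to 0.27, Rpl36al −0.20 to 0.11, Rpl39 −0.37 to 0.21, Rpl4 −0.28 to 0.0015, Rpl7 −0.17 to 0.16, Rpl7l1 −0.15 to 0.040, Rplp0 −0.22 to 0.20, Rplp1 −0.36 to 0.22, Rplp2 −0.32 to 0.26, Rps15a −0.36 to 0.063, Rps19 −0.27 to 0.31, Rps19bp1 −0.12 to 0.19, Rps2 −0.27 to 0.20, Rps24 −0.29 to 0.27, Rps27 −0.51 to 2.85, Rps27a −0.24 to 0.20, Rps29 −0.26 to 0.38, Rps4l −0.44 to 0.19, Rps4x −0.27 to 0.10, Rps6 −0.21 to 0.14, Rpsa −0.35 to 0.16, and, with no change of sign, Rpl3l −0.40 to −0.12, Rpl22l1 −0.78 to −0.18, Rpl5 −0.31 to −0.038, Rpl9 −0.42 to −0.0065 and Rps27l −0.27 to −0.016. The ratio of Rpl22l1 to Rpl22 without each library was added after the data were seen.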
